A study of Mus musculus with 48 samples.

Results

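Lysosomes, the vacuolar proton pump and Rab proteins were described here in whole kidney of mice given vancomycin, a glycopeptide antibiotic with known kidney toxicity. The genes were those named in the table whose symbol starts with Rab and a digit, Atp6v, Atp6ap, Lamp and a digit, or Cts and a letter. This gave 66 genes of the 7859 that could be named. They were 5 subunits of the V1 part and 5 of the V0 part of the pump, 1 accessory subunit, 6 cathepsins, 2 Lamp genes, 41 Rab GTPases and 6 Rab effectors or regulators.

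RNA came from kidneys of 48 female BALB/c mice, in 8 groups of 6, with 1 array per mouse. The drug groups were intraperitoneal (ip) vancomycin at 50, 200 and 400 mg/kg and intravenous (iv) vancomycin at the same amounts, each given as 7 daily injections. Each route had its own saline group, all mice were killed on day 8, and no strain change, transgene or age is named in the labels. A small piece of kidney was homogenised whole, so the arrays hold all its cell types together.

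Gene names rest on a reconstruction, because the values in the table do not follow the identifiers beside them. In 3 stretches of the table the values follow the identifier order at a fixed shift, and genes were named only there, for 10198 of 45101 probe sets. Among the 66 genes described here, 24 pairs of rows of the same gene correlated in level at 0.467 under the shift. As listed, 236 pairs correlated at 0.018, but these came from the 116 genes on the array whose symbols meet the same rule. Over pairs with both levels above 6 (log2), the median correlation of their within-group deviations was 0.607 (14 pairs) under the shift and 0.214 (28 pairs) as listed. These are descriptions across genes. The genes under the shift and as listed are different sets, so the correlations do not compare the namings on the same genes. Every name below holds only as far as the shift does.

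Of the 66 genes, 53 had a probe set above the table's median of 3.47 (log2 intensity) in at least 6 arrays and were tested, among 5748 genes in all. The 13 others were Ctsll3, Ctsq, Ctsw, Lamp5, Rab26, Rab30, Rab33a, Rab37, Rab39b, Rab3c, Rab40b, Rab7b and Rab9b, and they are not described further. Of 116 genes on the array whose symbols meet the same rule, the rest lay outside the named stretches and were not analysed here, among them Lamp1, Ctsd, Ctsl and Rab7.

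Array medians were 3.47 to 3.68 (log2) over the 24 ip arrays and 3.34 to 3.55 over the 24 iv arrays, and precision is limited by the 6 arrays of a group. The arrays of iv saline mouse 1 and of iv 50 mg/kg mouse 9 stand apart from the other iv arrays, whose 90th percentiles were 8.62 to 8.75, with that of all iv arrays reaching down to 8.28. Counts were also made without these 2 arrays. Proximal tubule markers, named by the same shift, had a summed linear intensity of 49089 to 57215 in ip saline and 30018 to 49579 in iv saline kidneys. With no other tissue to set beside them, these sums do not test the tissue label.

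The vacuolar ATPase pumps protons into lysosomes and endosomes, and in intercalated cells of the collecting duct it also sits at the cell surface and secretes acid. Its V1 part binds and splits ATP, its V0 part carries protons through the membrane, and the low pH lets cathepsins, the proteases of the lysosome, work. Rab proteins are small GTPases that each mark a set of membranes and steer vesicles between endosomes, lysosomes, the Golgi and the cell surface. The proximal tubule takes up filtered proteins and many drugs by endocytosis and delivers them to lysosomes.

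Promoters of 4 of the genes are shown because they carry the contrast described below, a pump subunit that fell, a pump subunit that did not pass, and the pair of Rab genes with the largest rises by ip. Each is the stretch of 250 bases before a transcript start in RefSeq on GRCm38.p6, the one nearest the gene's outer end where the reference holds several, written along the gene's own strand, with CACGTG or TGANTCA in capitals where a search found it. The transcript start lies at the outer end of the gene for Rab32 and inside the annotated gene for the others, by 4 bases for Atp6v0b, 235 for Rab15 and 443 for Atp6v1a. Atp6v1a lies on the minus strand, with its promoter at chr16:44139260-44139509.
Atp6v1a: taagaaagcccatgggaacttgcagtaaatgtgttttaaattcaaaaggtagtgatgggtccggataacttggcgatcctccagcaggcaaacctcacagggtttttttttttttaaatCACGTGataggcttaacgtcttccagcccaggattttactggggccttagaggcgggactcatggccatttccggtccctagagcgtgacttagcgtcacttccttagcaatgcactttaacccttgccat
Atp6v0b has its promoter on the minus strand at chr4:117887330-117887579.
Atp6v0b: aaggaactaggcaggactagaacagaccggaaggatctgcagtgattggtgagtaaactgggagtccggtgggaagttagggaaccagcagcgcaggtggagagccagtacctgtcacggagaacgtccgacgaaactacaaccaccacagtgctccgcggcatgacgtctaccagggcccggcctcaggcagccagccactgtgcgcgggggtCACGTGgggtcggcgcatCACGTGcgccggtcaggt
Rab32 has its promoter on the minus strand at chr10:10558208-10558457.
Rab32: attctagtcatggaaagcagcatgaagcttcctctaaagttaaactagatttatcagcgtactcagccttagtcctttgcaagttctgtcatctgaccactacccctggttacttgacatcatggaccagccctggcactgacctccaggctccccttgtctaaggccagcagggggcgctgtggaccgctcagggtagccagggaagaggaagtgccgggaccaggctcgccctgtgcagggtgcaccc
Rab15 has its promoter on the minus strand at chr12:76822525-76822774.
Rab15: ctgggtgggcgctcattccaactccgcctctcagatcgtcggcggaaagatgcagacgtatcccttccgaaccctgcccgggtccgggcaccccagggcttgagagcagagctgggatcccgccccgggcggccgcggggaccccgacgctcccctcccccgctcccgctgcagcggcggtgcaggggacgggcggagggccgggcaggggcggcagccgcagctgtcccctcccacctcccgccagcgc

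CACGTG is the core of the element bound by TFEB, a transcription factor of lysosomal genes, and TGANTCA is the core bound by AP-1. Both motifs read the same on the 2 strands, so 1 search covers both, and a TGANTCA that runs into a CACGTG shares the letters CA with it, which none of the 4 promoters shows. CACGTG occurred 1 time in the Atp6v1a promoter, starting at position -131 from that transcript start, and 2 times in that of Atp6v0b. Of 8 pump genes with a promoter in the reference, only these 2 held CACGTG. The Rab32 and Rab15 windows shown held neither motif, and of the 4 Rab15 windows in the reference 1, at chr12:76818375-76818624, held TGANTCA. Among the 50 of the 66 genes with a promoter in the reference, 6 held CACGTG in at least 1 window (12.0%), against 6.86% of 27025 genes. The 6 were Atp6v1a, Atp6v0b, Rab23, Rab27a, Rab3il1 and Ctsll3. Of these only Atp6v1a passed at 400 mg/kg, and Ctsll3 was not tested. TGANTCA was found in 3 of the 50 (6.0%), against 7.82% of all. A match is a string of letters in this window and nothing more was measured of it.

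The 400 mg/kg groups were compared with the saline group of the same route. At ip 400 mg/kg, 30 of the 53 genes passed the test (adjusted p below 0.05, limma with Benjamini-Hochberg adjustment over 5748 genes), 13 higher and 17 lower. The share of all tested genes that passed was 61.3%, with 36.3% higher and 25.1% lower. At iv 400 mg/kg, 24 of 53 passed, 13 higher and 11 lower, where 49.7% of all genes passed, 30.7% higher and 19.0% lower. The members' shares, 56.6% by ip and 45.3% by iv, lay near these backgrounds, so the count of changed genes is not a result about them. With each array centred on its median the calls were 10 higher and 20 lower by ip and 11 higher and 14 lower by iv, and without iv mice 1 and 9 they were 12 higher and 14 lower by iv. The median log2 difference over the 53 genes was -0.11 by ip, with 0.11 over all genes, and 0.03 by iv, with 0.09 over all genes.

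By both routes 10 genes rose and 11 fell, and 0 passed in opposite directions. Of all tested genes 61.3% passed by ip and 49.7% by iv. How many of all genes passed by both was not counted, so this agreement is not a result about these genes. The risers were Rab32, Rab15, Rab8b, Rab13, Rab27b, Rab3d, Rab35, Rab11b, Ctsb and Ctsz. The fallers were Atp6v1a, Atp6v1f, Atp6v1g1, Atp6v0a4, Atp6v0d2, Rab11fip4, Rab17, Rab28, Rab3a, Rab4a and Rab6b. By ip alone 9 genes passed, by iv alone 3, and 20 passed by neither. A gene that passed by 1 route is not thereby shown to differ between routes.

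**Figure D1:**
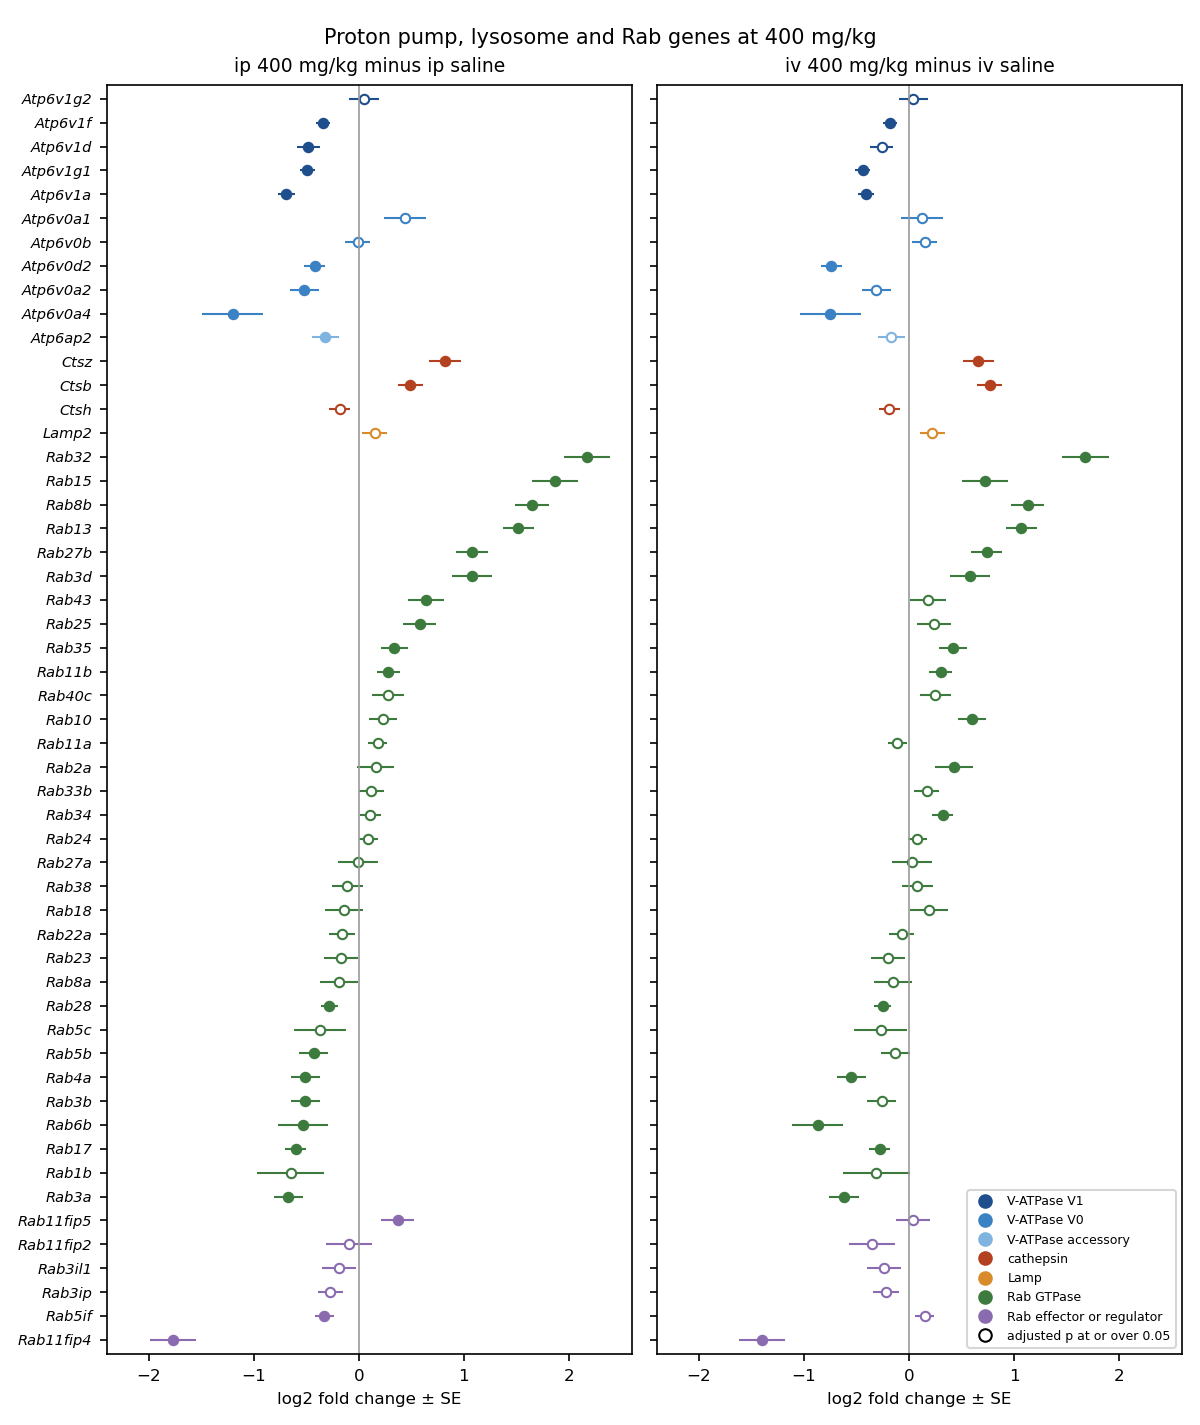
Log2 fold change with its standard error for the 53 tested genes, ip 400 mg/kg minus ip saline on the left and iv 400 mg/kg minus iv saline on the right, 6 mice per group, ordered by role and then by the ip value. Filled points passed at an adjusted p of 0.05; the pump genes that passed all lie left of 0 and Ctsz, Ctsb and the upper Rab genes lie right of it by both routes.

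With 1 probe set per gene, the proton pump moved in 1 direction where it passed. A second Atp6v0a1 probe set, given below, passed as higher by ip. Of the 11 tested subunits 8 fell and 0 rose at ip 400 mg/kg, with a median log2 difference of -0.42. At iv 400 mg/kg 5 fell and 0 rose, with a median of -0.26. Of all tested genes 25.1% passed as lower by ip and 19.0% by iv. In 5 subunits by ip and 3 by iv all 6 treated kidneys lay below all 6 saline kidneys, where 17.2% of all tested genes did so by ip and 6.87% by iv. In whole kidney, fewer cells of a type and less RNA per cell cannot be told apart.

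Atp6v1a, the V1 subunit that binds and splits ATP, had the largest fall of the V1 part by ip. Its log2 intensities were 11.13 at the lowest, 11.46 at the median and 11.68 at the highest in ip 400 mg/kg mice, against 12.02, 12.13 and 12.34 in ip saline mice. In iv 400 mg/kg mice they were 10.77, 11.06 and 11.25, against 11.26, 11.46 and 11.61 in iv saline mice. The groups did not overlap by either route, though by iv the gap between the nearest mice was only that between 11.25 and 11.26. The log2 fold change was -0.69 ± 0.08 by ip (SE, adjusted p = 1.3e-09) and -0.41 ± 0.08 by iv (adjusted p = 5.9e-05).

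Atp6v1g1, a subunit of the stalk that holds V1 in place, also separated by both routes. It ran from 12.72 to 12.86 (median 12.78) in ip 400 mg/kg mice and from 13.14 to 13.46 (median 13.24) in ip saline mice. By iv it ran from 12.02 to 12.22 (median 12.07) at 400 mg/kg and from 12.33 to 12.66 (median 12.59) in saline. The falls of 0.49 and 0.44 on the log2 scale had adjusted p values of 2.1e-07 by ip and 3.5e-06 by iv (limma). A further probe set of Atp6v1g1 gave -0.53 by ip (adjusted p = 0.00034) and -0.21 by iv (adjusted p = 0.18).

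The other V1 subunits had smaller differences. Atp6v1f, of the central rotor, fell by 0.34 by ip (adjusted p = 2e-05) and by 0.18 by iv (adjusted p = 0.024). The iv call of Atp6v1f ended without iv saline mouse 1 or 6 or iv 400 mg/kg mouse 46 (adjusted p 0.052 to 0.059), with quantile normalization, with array weights, with only iv saline and iv 400 mg/kg in the fit, and without iv mice 1 and 9. Atp6v1d, also of the rotor, fell by 0.48 by ip (adjusted p = 0.00027), and its iv value of -0.26 had an adjusted p of 0.053. A further Atp6v1d probe set passed by both routes, with -0.5 by ip (adjusted p = 0.00016, limma) and -0.43 by iv (adjusted p = 0.0015). Atp6v1g2, a G subunit best known from neurons, was dim, with medians of the 8 groups between 3.61 and 4.32. Its differences of 0.05 by ip and 0.04 by iv did not pass.

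Of the 5 V0 subunits 3 fell by ip and 2 by iv, where 25.1% of all tested genes fell by ip and 19.0% by iv. Atp6v0a4, the a subunit isoform of intercalated cells whose loss causes distal renal tubular acidosis in humans, ran from 6.68 to 7.91 (median 7.09) in ip 400 mg/kg mice and from 7.96 to 8.83 (median 8.34) in ip saline mice. In iv 400 mg/kg mice it ran from 5.80 to 7.49 (median 6.78), against 7.04 to 8.02 (median 7.28) in iv saline mice. The ip groups were apart and the iv groups overlapped. The log2 fold change was -1.20 ± 0.29 by ip (adjusted p = 0.00045) and -0.75 ± 0.29 by iv (adjusted p = 0.029). The iv call ended without any 1 of iv saline mice 3 and 4 and iv 400 mg/kg mice 44, 47 and 48, with adjusted p values of 0.064 to 0.11.

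Atp6v0d2, a d subunit isoform found in kidney and osteoclasts, had its larger fall by iv. It ran from 7.09 to 7.87 (median 7.47) in iv 400 mg/kg mice and from 8.08 to 8.32 (median 8.28) in iv saline mice, with no overlap. By ip it ran from 8.05 to 8.50 (median 8.33) at 400 mg/kg and from 8.48 to 8.86 (median 8.69) in saline, where 1 treated mouse reached the saline range. The log2 fold change was -0.42 ± 0.10 by ip (adjusted p = 0.00028) and -0.74 ± 0.10 by iv (adjusted p = 2e-08), and the difference between them, 0.33 ± 0.14 for ip minus iv, did not pass (adjusted p = 0.18).

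The remaining V0 subunits had values on both sides of 0. Atp6v0a2, the a subunit isoform of Golgi and endosomes, fell by 0.52 by ip (adjusted p = 0.0011), and its iv value was -0.31 (adjusted p = 0.056). A dimmer Atp6v0a2 probe set (mean 4.98) gave -0.02 by ip and -0.03 by iv, neither of which passed. Atp6v0a1, a widely expressed isoform, had 0.44 by ip (adjusted p = 0.061) and 0.12 by iv (adjusted p = 0.66), the highest value of the 11 subunits by ip. A second Atp6v0a1 probe set gave 0.80 by ip with an adjusted p of 0.00087. Atp6v0b, a proton-carrying ring subunit and the one with 2 copies of CACGTG above, had -0.01 ± 0.12 by ip and 0.15 ± 0.12 by iv, and its groups overlapped by both routes.

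Atp6ap2, the accessory subunit also known as the prorenin receptor, fell by 0.32 by ip (adjusted p = 0.032) with overlapping groups, and its iv value was -0.17 (adjusted p = 0.28). The ip call ended without any 1 of ip saline mice 63 and 64 and ip 400 mg/kg mice 103, 104 and 108 (adjusted p 0.051 to 0.09).

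**Figure D2:**
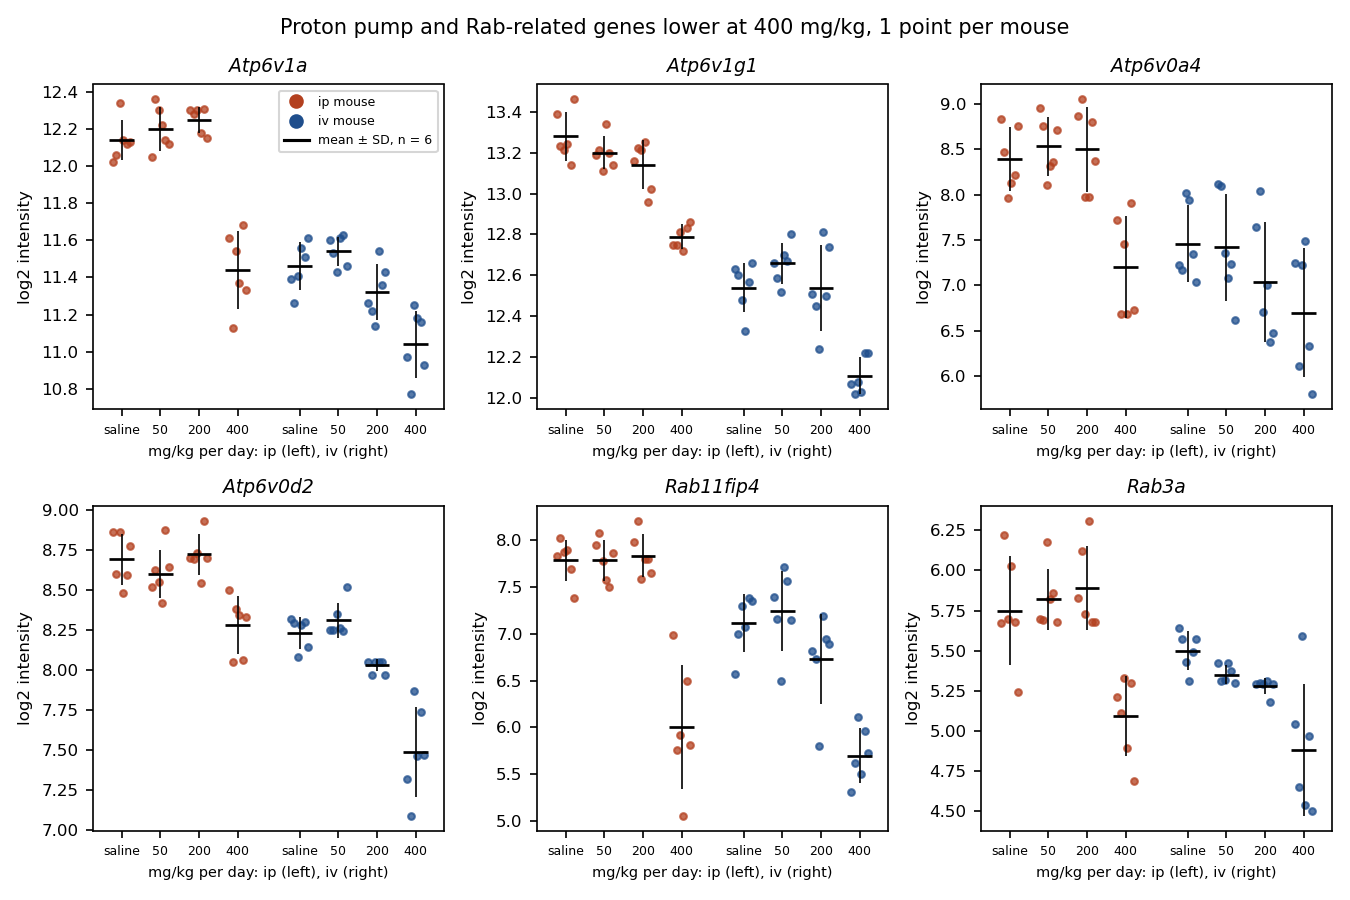
Log2 intensity of 4 pump subunits, Rab11fip4 and Rab3a by daily dose, with 1 point per mouse, ip groups on the left of each panel and iv groups on the right, and a bar with whiskers for the mean ± SD (n = 6). The 400 mg/kg means are lowest by both routes, and the 50 and 200 mg/kg points lie near saline by ip.

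Markers of tubule cells moved in the same kidneys. The summed linear intensity of the 3 tested markers of intercalated cells (Slc4a1, Hmx2 and Rhcg, of 11 listed) was 241 to 535 in ip 400 mg/kg mice and 1294 to 1623 in ip saline mice. It was 238 to 756 in iv 400 mg/kg mice and 601 to 1099 in iv saline mice. The sum of 9 tested proximal tubule markers of 11 listed was 3146 to 10930 in ip 400 mg/kg mice and 49089 to 57215 in ip saline mice. By iv it was 3407 to 21566 at 400 mg/kg and 30018 to 49579 in saline. All 3 intercalated and all 9 proximal markers fell by both routes. Of 4 tested markers of principal cells, the other main cell of the collecting duct, 2 fell by ip and 3 by iv. Their sum overlapped, with 1622 to 4273 in ip 400 mg/kg mice and 1989 to 3484 in ip saline mice, and with 838 to 3051 in iv 400 mg/kg mice and 1807 to 4294 in iv saline mice. The part of these cells in the pump genes' falls was not tested.

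Of the 3 tested cathepsins 2 rose by both routes and Ctsh did not pass, where 36.3% of all tested genes rose by ip and 30.7% by iv. Ctsz, a lysosomal carboxypeptidase, ran from 12.85 to 13.39 (median 13.09) in ip 400 mg/kg mice and from 12.17 to 12.53 (median 12.24) in ip saline mice. By iv it ran from 12.31 to 12.81 (median 12.46) at 400 mg/kg and from 11.41 to 12.24 (median 11.95) in saline. All 6 treated kidneys lay above all 6 saline kidneys by both routes, as 24.1% of all tested genes did by ip and 15.1% by iv. The log2 fold change was 0.82 ± 0.15 by ip (adjusted p = 4.6e-06) and 0.66 ± 0.15 by iv (adjusted p = 0.00022), and 2 further Ctsz probe sets passed in the same direction by both routes.

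Ctsb, an abundant cysteine protease of the lysosome, also separated fully. It ran from 12.87 to 13.08 (median 12.94) in ip 400 mg/kg mice and from 12.42 to 12.54 (median 12.48) in ip saline mice. By iv it ran from 12.69 to 13.02 (median 12.88) at 400 mg/kg and from 11.70 to 12.42 (median 12.07) in saline. The rises were 0.49 ± 0.12 by ip (adjusted p = 0.00056) and 0.77 ± 0.12 by iv (adjusted p = 9.6e-07). Another Ctsb probe set rose by both routes (0.9 by ip, 0.93 by iv). The dimmest of the Ctsb probe sets gave 0.74 by ip (adjusted p = 0.0056, limma) and 0.27 by iv, which did not pass (adjusted p = 0.35). The iv saline mice were the more scattered group, and mouse 1 was the lowest of them.

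Ctsh, an aminopeptidase of the lysosome, had a log2 difference of -0.18 by ip and -0.19 by iv, both with an adjusted p of 0.12. Lamp2, a major protein of the lysosome's membrane, had 0.15 ± 0.12 by ip (adjusted p = 0.27) and 0.22 ± 0.12 by iv (adjusted p = 0.11). Both were well above background, with group medians of 11.55 to 12.00 for Ctsh and 12.13 to 12.84 for Lamp2 over the 400 mg/kg and saline groups, and the groups overlapped.

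Of the 32 tested Rab GTPases 10 rose and 7 fell by ip, and 11 rose and 5 fell by iv. The shares that passed, 53.1% by ip and 50.0% by iv, were not above the background by ip (61.3%) and near it by iv (49.7%), so these counts say nothing particular of Rab genes. Rab32, which serves lysosome-related organelles such as melanosomes and acts in macrophages, had the highest fold change of the 53 genes by both routes. It ran from 7.04 to 8.03 (median 7.44) in ip 400 mg/kg mice and from 4.95 to 5.62 (median 5.35) in ip saline mice. In iv 400 mg/kg mice it ran from 5.17 to 6.68 (median 6.30), against 3.79 to 4.87 (median 4.36) in iv saline mice. All treated kidneys were above all saline kidneys of their route, and the log2 fold change was 2.17 ± 0.22 by ip (adjusted p = 1.8e-11) and 1.68 ± 0.22 by iv (adjusted p = 2.4e-08). Rab38, its close relative, had -0.11 by ip (adjusted p = 0.54) and 0.08 by iv (adjusted p = 0.71).

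Rab8b and Rab13, which carry cargo to the plasma membrane and to cell junctions, came next among genes that separated by both routes. Rab8b ran from 8.40 to 9.28 (median 9.03) in ip 400 mg/kg mice and from 6.93 to 7.63 (median 7.29) in ip saline mice. By iv Rab8b ran from 7.45 to 7.97 (median 7.93) at 400 mg/kg and from 6.30 to 7.03 (median 6.80) in saline. Its fold changes were 1.65 ± 0.16 by ip (adjusted p = 1.5e-12) and 1.13 ± 0.16 by iv (adjusted p = 5.3e-08). Rab8a, its paralogue, lay between 8.60 and 9.16 in ip 400 mg/kg mice and between 8.84 and 9.41 in ip saline mice, with a fold change of -0.19 by ip and -0.15 by iv that did not pass.

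Rab13 ran from 7.33 to 7.70 (median 7.49) in ip 400 mg/kg mice and from 5.81 to 6.47 (median 5.90) in ip saline mice. By iv Rab13 ran from 6.59 to 7.37 (median 7.00) at 400 mg/kg and from 5.60 to 6.19 (median 5.96) in saline. The groups were apart by both routes, with fold changes of 1.52 ± 0.15 by ip (adjusted p = 3.8e-12) and 1.07 ± 0.15 by iv (adjusted p = 5.4e-08).

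Rab15, which acts in recycling from early endosomes, was 1 of 2 genes that passed the test of a difference between the routes. In ip 400 mg/kg mice it had 7.23, 7.41, 6.69, 7.60, 5.35 and 6.91 in order of mouse number, against 4.72 to 5.16 in ip saline mice. In iv 400 mg/kg mice it had 5.66, 5.31, 5.31, 5.78, 6.72 and 6.39, against 4.59 to 5.37 in iv saline mice. The ip groups did not overlap, though mouse 107 was close to saline, while the iv groups overlapped. The log2 fold change was 1.87 ± 0.22 by ip (adjusted p = 8.8e-10) and 0.72 ± 0.22 by iv (adjusted p = 0.0065).

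The difference of these effects, ip minus iv, was 1.15 ± 0.32 for Rab15 (adjusted p = 0.028, limma), and 4.31% of all genes passed in that comparison. It ended without any 1 of iv 400 mg/kg mice 44 and 45, ip saline mouse 63 and ip 400 mg/kg mice 104 and 106 (adjusted p 0.052 to 0.072, difference 1.00 to 1.09). It also ended with quantile normalization and with only the 4 groups concerned in the fit. The other of the 2 genes that passed was Rab5if, named as a Rab5 interacting factor, with a difference of -0.48 ± 0.13 (adjusted p = 0.03). Rab5if fell by 0.33 by ip (adjusted p = 0.0023), and its iv value was 0.15 (adjusted p = 0.2). The call of Rab5if ended without any 1 of 8 mice (2, 5, 43, 45, 46, 64, 104 and 108), with adjusted p values of 0.051 to 0.073.

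Members of the Rab27 and Rab3 families, which act in regulated secretion, split. Rab27b ran from 5.65 to 6.12 (median 5.91) in ip 400 mg/kg mice and from 4.56 to 5.08 (median 4.80) in ip saline mice. By iv Rab27b ran from 4.37 to 5.31 (median 4.95) at 400 mg/kg and from 3.89 to 4.36 (median 4.12) in saline. It separated by both routes, with 1.08 ± 0.15 by ip (adjusted p = 3.9e-08) and 0.74 ± 0.15 by iv (adjusted p = 6.4e-05), while a second Rab27b probe set below the table's median gave 0.05 by ip and -0.02 by iv. Rab27a was at the background level, with group medians of 3.42 to 3.58 over the 400 mg/kg and saline groups, and did not pass.

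Rab3d ran from 6.00 to 6.87 (median 6.13) in ip 400 mg/kg mice and from 4.73 to 5.60 (median 5.38) in ip saline mice, a rise of 1.08 ± 0.19 (adjusted p = 4.9e-06). Its iv rise of 0.58 (adjusted p = 0.011) came with overlapping groups and ended without iv saline mouse 6 (adjusted p = 0.073). Rab3a fell by 0.67 by ip (adjusted p = 8.7e-05) and by 0.62 by iv (adjusted p = 0.00032), and Rab3b fell by 0.51 by ip (adjusted p = 0.0014) with a value of -0.26 by iv (adjusted p = 0.12). The Rab3 genes that passed by ip thus lay on both sides of 0, with Rab3d against Rab3a and Rab3b.

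**Figure D3:**
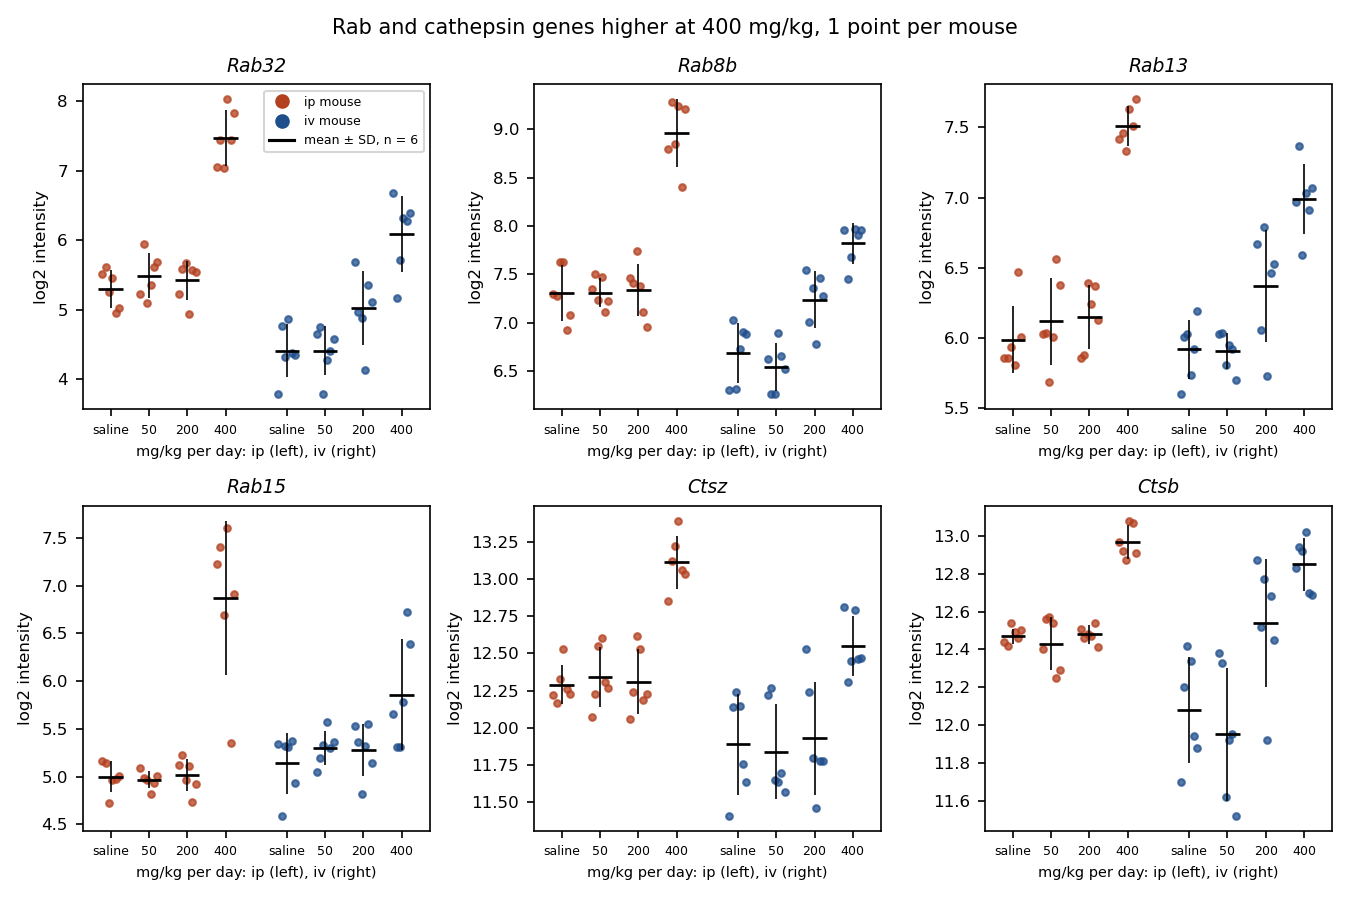
Log2 intensity of 4 Rab genes and 2 cathepsins by daily dose, with 1 point per mouse, ip groups on the left of each panel and iv groups on the right, and a bar with whiskers for the mean ± SD (n = 6). By ip the 50 and 200 mg/kg groups lie at the level of saline and 400 mg/kg stands above; by iv the 200 mg/kg mice are spread between saline and 400 mg/kg for Rab32, Rab8b, Rab13 and Ctsb.

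Rab genes of recycling endosomes had smaller differences in both directions. Rab17, of epithelial transcytosis, fell by 0.60 by ip (adjusted p = 3.4e-06) and by 0.28 by iv (adjusted p = 0.022). All treated kidneys lay below all saline kidneys by both routes, as in 17.2% of all tested genes by ip and 6.87% by iv. By iv the nearest Rab17 values were only 8.52 at 400 mg/kg and 8.54 in saline. The iv call of Rab17 ended without iv 400 mg/kg mouse 46 or 48 (adjusted p 0.053 and 0.09). Rab4a, of fast recycling, fell by 0.51 by ip (adjusted p = 0.0014) and by 0.55 by iv (adjusted p = 0.00083), also without overlap. Rab11b rose by 0.28 by ip (adjusted p = 0.023) and by 0.30 by iv (adjusted p = 0.017), and Rab35 by 0.34 by ip and 0.42 by iv (adjusted p = 0.026 and 0.0072).

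The rises of Rab11b and Rab35 depended on single mice and on the scaling. The ip call of Rab11b ended without ip 400 mg/kg mouse 104 or 108 (adjusted p 0.053 to 0.054), and that of Rab35 without mouse 104 or 106 (adjusted p 0.052 to 0.053). Both iv calls ended without iv saline mouse 1 (adjusted p 0.075 for Rab11b and 0.051 for Rab35). With each array centred on its median, which moved the median of all genes by ip to 0.01, Rab11b lost both calls and Rab35 the ip call. Rab25, an epithelial relative of Rab11, rose by 0.58 by ip (adjusted p = 0.0021), with 0.24 by iv (adjusted p = 0.22). Rab11a itself had 0.18 by ip (adjusted p = 0.091) and -0.11 by iv (adjusted p = 0.36).

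Genes of early endosomes and the Golgi passed in both directions. Rab5b fell by 0.43 by ip (adjusted p = 0.0085), with -0.13 by iv (adjusted p = 0.49), and Rab5c had -0.37 by ip and -0.27 by iv, neither of which passed. Rab6b, of the Golgi, fell by 0.53 by ip (adjusted p = 0.049) and by 0.87 by iv (adjusted p = 0.0023), but its iv 400 mg/kg median of 3.35 was below the table's median, so the size is approximate. The ip call of Rab6b ended without any 1 of ip saline mice 61 to 65 and ip 400 mg/kg mice 103, 104, 106 and 107 (adjusted p 0.051 to 0.2). Rab43, of the Golgi, rose by 0.64 by ip (adjusted p = 0.001), with 0.18 by iv (adjusted p = 0.38). Rab28 fell by 0.28 by ip (adjusted p = 0.0013) and by 0.25 by iv (adjusted p = 0.006).

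By iv alone Rab10, Rab34 and Rab2a passed. Rab10, of exocytosis in polarised cells, lay between 8.05 and 8.77 in iv 400 mg/kg mice and between 7.27 and 8.04 in iv saline mice, without overlap, a rise of 0.60 (adjusted p = 0.00016). Rab34 rose by 0.32 by iv (adjusted p = 0.0062), and a second probe set gave 0.30. By ip the Rab34 probe sets gave 0.11 and -0.04, neither of which passed. Rab2a, of transport between endoplasmic reticulum and Golgi, has no settled direction, since 1 probe set gave 0.43 (adjusted p = 0.047 in the gene-level test) and another gave -0.45 (adjusted p = 0.03 when every row was tested). The mean of its rows gave -0.04, and the call also ended without any 1 of mice 1, 5, 6, 43, 44, 45 and 46 (adjusted p 0.052 to 0.17). The probe sets of Rab24 also disagreed, with 0.09 and -0.22 by ip, and those of Rab40c with 0.25 and -0.12 by iv, and none of these 4 passed.

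Of the 6 tested Rab effectors and regulators 1 rose and 2 fell by ip, and 0 rose and 1 fell by iv. The shares that passed, 50.0% by ip and 16.7% by iv, were not above those of all tested genes (61.3% and 49.7%). Rab11fip4, an effector of Rab11, had the lowest fold change of the 53 genes by both routes. In ip 400 mg/kg mice it had 6.98, 5.76, 5.92, 5.06, 6.50 and 5.81, against 7.38 to 8.02 in ip saline mice. In iv 400 mg/kg mice it had 5.31, 5.62, 6.11, 5.51, 5.96 and 5.73, against 6.57 to 7.38 in iv saline mice. All treated kidneys lay below all saline kidneys of their route, and the fold change was -1.77 ± 0.22 by ip (adjusted p = 1.3e-09) and -1.40 ± 0.22 by iv (adjusted p = 4.8e-07).

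The other Rab11 effectors did not share that fall. Rab11fip5 rose by 0.37 by ip (adjusted p = 0.04), and had 0.04 by iv (adjusted p = 0.85). The ip call ended without any 1 of ip saline mice 63 to 65 and ip 400 mg/kg mice 104, 105, 106 and 108 (adjusted p 0.051 to 0.11) and with arrays centred on their medians. Rab11fip2 had -0.09 by ip and -0.35 by iv, neither of which passed. Rab3ip, which activates Rab8, had -0.27 by ip (adjusted p = 0.052) and -0.22 by iv (adjusted p = 0.14), and Rab3il1 had -0.19 and -0.24, neither of which passed.

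Markers of macrophages and other myeloid cells were also higher at 400 mg/kg. The summed linear intensity of 16 tested markers of 22 listed was 13981 to 32342 in ip 400 mg/kg mice and 752 to 1405 in ip saline mice. It was 6028 to 16110 in iv 400 mg/kg mice and 736 to 874 in iv saline mice. All 16 rose by ip and 15 by iv, while 0 of 7 neutrophil markers could be tested and the 1 tested cytotoxic lymphocyte marker, Cd8a, fell by 0.39 by ip (adjusted p = 0.0014) and had 0.01 by iv. The part of these cells in the rises was not tested.

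Of the pathway genes outside the rule, 61 of 139 listed were tested, and 19 rose and 17 fell by ip, and 12 rose and 14 fell by iv. The shares that passed, 59.0% by ip and 42.6% by iv, were not above those of all tested genes (61.3% and 49.7%). The largest rise was in Sytl2, an effector of Rab27 in secretion, which ran from 10.48 to 11.85 in ip 400 mg/kg mice and from 7.54 to 8.36 in ip saline mice. By iv Sytl2 ran from 8.42 to 10.36 at 400 mg/kg and from 6.35 to 7.41 in saline, and its fold changes were 3.15 ± 0.27 by ip (adjusted p = 8.6e-14) and 2.39 ± 0.27 by iv (adjusted p = 4.3e-10). Of 8 genes listed as cathepsin inhibitors 3 were tested, and all 3 rose by both routes with no overlap. Of all tested genes 24.1% by ip and 15.1% by iv had all 6 treated kidneys above all saline kidneys. The 3 were Serpinb6b (2.34 by ip, 2.20 by iv), Cstb, which encodes cystatin B (1.29, 1.47), and Cst3, which encodes cystatin C (0.60, 0.63). For Serpinb6b the name of inhibitor of cathepsins rests on the list alone.

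Lysosomal hydrolases and other lysosomal proteins, 19 tested on 1 list, went both ways, with 7 higher and 6 lower by ip and 5 higher and 4 lower by iv. The shares that passed, 68.4% by ip and 47.4% by iv, lay near those of all tested genes (61.3% and 49.7%). The risers by ip included Npc1, Npc2 and Laptm5, which are not hydrolases, and Laptm5 is also among the myeloid markers. Gla, the galactosidase lacking in Fabry disease, rose by 1.72 by ip and 0.87 by iv, Pla2g15, a lysosomal phospholipase, by 1.45 and 0.72, and Asah1, acid ceramidase, by 1.22 and 0.84. Neu1, lysosomal sialidase, fell by 1.07 by ip and by 0.70 by iv. Tfeb had -0.16 by ip (adjusted p = 0.32) and -0.12 by iv (adjusted p = 0.49).

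Of 14 tested endocytosis genes 3 rose and 6 fell by ip, and 1 rose and 6 fell by iv. The shares that passed, 64.3% by ip and 50.0% by iv, lay near those of all tested genes (61.3% and 49.7%). The genes named below all fell, and those that rose are not named. Lrp2, which encodes the uptake receptor megalin, ran from 9.96 to 11.70 in ip 400 mg/kg mice and from 13.32 to 13.54 in ip saline mice, and from 10.19 to 12.01 in iv 400 mg/kg mice and from 12.15 to 13.02 in iv saline mice. Its fold changes were -2.66 by ip (adjusted p = 4.4e-13) and -1.95 by iv (adjusted p = 4.2e-09). Its partners fell by both routes too. The log2 fold changes, ip then iv, were -2.41 and -1.70 for Cubn, which encodes cubilin, -1.79 and -1.15 for the megalin chaperone Lrpap1, -1.38 and -0.83 for Amn, and -1.12 and -0.78 for the adaptor Dab2. Lrp2 and Cubn are also among the proximal tubule markers summed above.

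At the lower doses the counts differed between the routes, and no test of that difference was made. At iv 200 mg/kg 3 of 53 genes passed, all higher, where 7.36% of all genes passed and 6.07% were higher. The members' share, 5.66%, was not above that of all genes, so the count is not a result about them. With array weights 15 passed, 8 higher and 7 lower. The 3 genes were Ctsb, with 0.46 ± 0.12 (adjusted p = 0.013), Rab8b, with 0.55 ± 0.16 (adjusted p = 0.021), and Rab13, with 0.46 ± 0.15 (adjusted p = 0.048). At ip 200 mg/kg 0 of 53 passed with limma (0.087% of all genes), at iv 50 mg/kg 0 (0.539%) and at ip 50 mg/kg 0 (0.087%). The number of the 53 genes at an unadjusted p under 0.05 was also 0 in each of these 3, and their fold changes lay between -0.24 and 0.36.

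By ip the mean of Ctsb was 12.47 in saline, 12.43 at 50, 12.48 at 200 and 12.97 at 400 mg/kg, and by iv it was 12.08, 11.95, 12.54 and 12.85 over the same steps. Rab32 averaged 5.30, 5.49, 5.42 and 7.47 over the ip steps and 4.41, 4.41, 5.02 and 6.09 over the iv steps. For Atp6v1a the means were 12.14, 12.20, 12.25 and 11.44 by ip and 11.46, 11.54, 11.32 and 11.04 by iv. Up to 200 mg/kg by ip these means stayed near saline, whereas by iv the 200 mg/kg means lay between those of saline and 400 mg/kg. Atp6v0d2 and Rab3a lay lower in all 6 iv 200 mg/kg mice than in all 6 iv saline mice without passing the test (Atp6v0d2 -0.21, adjusted p = 0.2), where 0.748% of all genes did so.

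The 3 calls at iv 200 mg/kg rested on few mice. Their number was 0 without iv saline mouse 1 or without iv 200 mg/kg mouse 25, 1 without iv saline mouse 3 or iv 200 mg/kg mouse 29, and 5 without iv 200 mg/kg mouse 28. Of 20 alternatives each, the Rab13 call ended in 14, that of Rab8b in 6 and that of Ctsb in 3. Leaving out any 1 of 9 mice ended the Rab13 call, as did centring and quantile normalization. Mice 25 to 30 of that group had Rab32 at 5.69, 4.97, 4.88, 4.13, 5.36 and 5.11 and the injury marker Havcr1 (KIM-1) at 12.63, 10.72, 13.74, 9.95, 13.13 and 12.53. Mouse 28 was lowest in both, and Havcr1 in iv saline mice ran from 8.71 to 10.21. The summed myeloid markers of the group ran from 956 to 4736, against 736 to 874 in iv saline mice.

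Without the drug the routes already differed. Between the saline groups 39 of 53 genes passed and all were higher in ip saline, with a median difference of 0.52, where 57.7% of all genes passed, 55.1% as higher, and the median of all was 0.41. In 24 of the 53 all 6 ip saline kidneys lay above all 6 iv saline kidneys, as in 36.2% of all genes. Among the largest differences were those of Rab3d (0.96), Atp6v0a4 (0.94), Rab32 (0.89), Rab11fip2 (0.89) and Rab43 (0.87). Route and anything else that differed between the 2 sets of arrays cannot be told apart here, and the 90th percentile of an array was 9.07 to 9.23 in ip arrays and 8.28 to 8.75 in iv arrays.

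The count depended on the scaling of the arrays. With each array centred on its median 24 genes passed, all higher in ip saline, and the median of all genes was 0.25. With quantile normalization 12 passed, 6 higher and 6 lower, and the median of all genes was -0.04. Under all 3 scalings 6 genes passed as higher in ip saline, namely Atp6v1g1 (0.73, 0.57 and 0.54), Atp6v1a (0.68, 0.52 and 0.29), Rab3d (0.96, 0.80 and 0.61), Atp6v1g2, Rab22a and Rab33b. Each fold change at 400 mg/kg above uses the saline group of its own route.

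**Figure D4:**
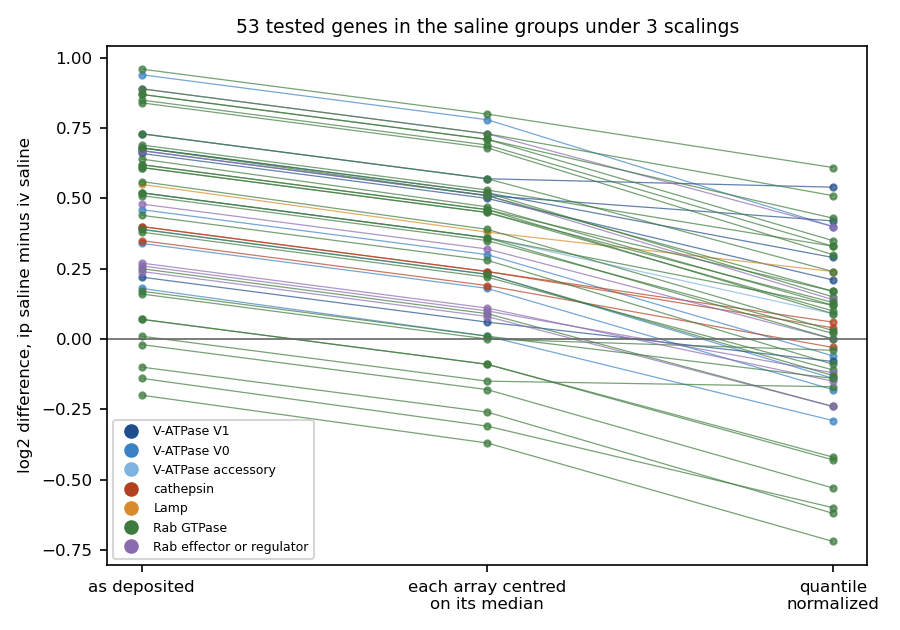
Log2 difference of ip saline minus iv saline for each of the 53 tested genes (1 line per gene, coloured by role) as deposited, with each array centred on its median, and after quantile normalization. Most lines start above 0 and end on both sides of it, and the median of all tested genes moves from 0.41 to 0.25 and to -0.04.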

How the data were processed

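Whole-kidney RNA of 48 mice in 8 groups of 6 was measured on single-colour Affymetrix arrays. The authors deposited linear intensity values for which the submitters' processing notes name GCRMA. The version of that tool is not given in the sources used here. Log2 was taken without an offset. The mice carry numbers that no groups share, and nothing in the labels says they were processed in batches.

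Names came from the platform annotation at a row shift: positions 751 to 3250 (64), 5001 to 11750 (-47) and 34251 to 36000 (-16168). Probe sets above 3.47 in at least 6 arrays were kept, and the one with the highest mean stood for a gene.

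All groups were fitted together with limma 3.58.1 in R 4.3.3 (group means, contrasts, moderated two-sided tests with an intensity trend and 40 residual degrees of freedom), with Benjamini-Hochberg adjustment over 5748 genes. The fit was tested on simulated data. Alternatives were array centring, quantile normalization, no filter, row means, groups of 1 comparison only, array weights, no trend, and leaving out mice.

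Members and lists were chosen with earlier results of these data known. Members were named where they passed with a log2 change of at least 1, were well-known pump, lysosome or Rab genes, passed at a lower dose or between routes, or had probe sets that disagreed. Other members are given by role. Pathway genes named in the results were the 6 largest rises and 6 largest falls by both routes, with Tfeb. Cst3, Npc1, Npc2, Laptm5 and the pathway genes of the closing section were named after their values were seen.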

Additional observations from a re-analysis of the deposited data

Results flagged for a closer look

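Over 25 of the genes, 200 groups of 6 mice were screened for a mouse far from the other 5 (Dixon's 95% critical value for 6 values), and 13 were found, where chance gives about 1 in 20. At 400 mg/kg they were mouse 107 in Rab38 by ip (highest, 7.53 log2 intensity), mouse 44 in Rab11fip2 by iv (lowest, 3.91) and mouse 43 in Rab24 by iv (highest, 9.06). At 200 mg/kg they were mouse 85 in Rab43 by ip (highest, 7.85), mouse 27 in Rab11fip4 by iv (lowest, 5.80) and mouse 26 in Rab27a by iv (highest, 4.16).

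At 50 mg/kg mouse 67 was lowest in Ctsh by ip (11.74), mouse 9 lowest in Rab40c by iv (6.13) and mouse 78 highest in Rab27a by iv (4.62). In ip saline mouse 65 was highest in Rab13 (6.47), and mouse 63 was highest in Rab11a (9.78) and lowest in Rab34 (9.78) and in Rab27a (2.88). Rab27a lies at the background level.

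The 400 mg/kg effects differed between the routes in Rab15 and Rab5if. The difference, ip minus iv, was 1.15 in Rab15 (adjusted p = 0.028) and -0.48 in Rab5if (adjusted p = 0.03) with limma, and each passed only with some mice, as given above. The number of such genes at an unadjusted p was 8 of 53 (15.1%), where 19.7% of all genes were under it.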

How the results depend on the processing

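The count at ip 400 mg/kg was 30 and ran from 30 to 39 under the 7 alternatives to the fit and from 25 to 31 without 1 mouse. The 39 came without the filter, where 66 genes were tested in place of 53, and the next highest count was 34. At iv 400 mg/kg it was 24, ran from 16 to 28, and from 22 to 25 without 1 mouse. Calls held under every alternative run for 25 of 30 genes by ip and 16 of 24 by iv. The 3 calls at iv 200 mg/kg became 0 with only the iv saline and iv 200 mg/kg groups in the fit, 15 with array weights (8 higher, 7 lower) and 1 without iv mice 1 and 9, an alternative chosen after seeing the data, and ran from 0 to 5 without 1 mouse. With only the 2 groups compared in the fit the iv 400 mg/kg calls of Atp6v0a4, Atp6v1f, Rab11b, Rab17, Rab28, Rab2a, Rab35 and Rab3d ended, and with array weights those of Atp6v0a4, Atp6v1f, Rab11b, Rab2a and Rab3d. The 2 route differences became 0 with quantile normalization and 0 with only their 4 groups, and ran from 0 to 2 without 1 mouse. The 39 differences between saline groups became 24 with centring and 12 with quantile normalization. Rab2a at iv 400 mg/kg reversed to -0.04 as the mean of its rows. The causes were not tested. No paired analysis was possible because no mouse number is shared between groups. Genes near 3.47, such as Rab6b, Rab23, Rab27a and Atp6v1g2, are limited by signal over background.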

Other observations

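The lysosome and transport genes given here were named after their values were seen, and the shares of their lists that passed lay near those of all genes or below them. Npc2 and Npc1, which move cholesterol out of lysosomes, rose, Npc2 by 0.60 by ip and 0.61 by iv and Npc1 by 1.04 and 0.58 (adjusted p from 4.5e-07 to 0.026, limma). Lipa, which frees that cholesterol from its esters, fell by 1.06 by ip and by 0.81 by iv. Tfe3, a relative of Tfeb, rose by 0.63 by ip and 0.70 by iv, and Lamtor2 and Lamtor4, parts of the lysosomal platform that recruits mTORC1, fell by 0.64 and 0.69 by ip and by 0.57 and 0.28 by iv. Lamtor1 of the same platform had -0.01 by ip and -0.02 by iv, and Rragd, a GTPase that binds it, had 0.24 and 0.17, and none of these passed.

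Of 6 tested autophagy genes 1 rose by each route, Wipi1 by ip (0.56, adjusted p = 0.029) and Gabarapl2 by iv (0.45, adjusted p = 0.028). Becn1 had 0.04 by ip and 0.05 by iv, and neither passed. Of 9 tested genes of the Rab machinery 3 rose and 2 fell by ip and 1 rose and 1 fell by iv, and Dennd1a, an exchange factor for Rab35, fell by 0.73 by ip and by 0.67 by iv.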
